A study of Mus musculus with 4 samples.

Results

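*Ajuba* and 9 genes of the Hippo pathway (*Yap1*, *Wwtr1*, *Lats1*, *Lats2*, *Tead1*, *Nf2*, *Ccn1*, *Ccn2* and *Amotl2*) were examined in the livers of *Usp21* KO and WT mice. The 10 genes were taken by symbol from the 35739 genes of the deposited salmon table, and all 10 were found once. The question was whether *Ccn1*, *Ccn2* and *Amotl2*, target genes of the coactivator YAP, moved with *Ajuba*. *Ajuba* itself was shortlisted by the study from these same libraries, so its direction is not independent evidence.

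The 4 libraries were WT 2, WT 3, *Usp21* KO 1 and *Usp21* KO 3, which gives 2 libraries per genotype. USP21 is a ubiquitin-specific protease. The KO allele lacks exons 3 and 4 in every tissue, was made in ES cells and was carried on a mixed background of B6 and the strain of those cells, so the deletion is not limited to hepatocytes. WT and KO mice were littermates of 10 to 11 weeks on a normal diet. The labels number the libraries but do not say that each is 1 animal, so the p-values below measure the spread between these libraries.

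The Hippo pathway limits organ size, and the liver is the organ in which this is best known. Its core is a kinase cascade in which MST kinases, with the scaffold SAV1, switch on the LATS kinases, which then phosphorylate the coactivators YAP and TAZ and keep them out of the nucleus. Unphosphorylated YAP and TAZ enter the nucleus, bind TEAD factors and switch on genes such as *Ccn1*, *Ccn2* and *Amotl2*. NF2 (Merlin) acts upstream of LATS, while AJUBA, a LIM domain protein, binds LATS and restrains it. The phosphorylation steps themselves are not seen in RNA, whereas the RNA of target genes is commonly read as the output of the pathway.

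The DNA sequence that TEAD factors recognise was looked for in the promoters of these genes. The motif searched was GGAATG on either strand (CATTCC when it lies on the strand opposite to the gene) in RefSeq windows of 300 bases, from 250 bases before to 50 bases after each transcription start (GRCm38.p6). Of the 10 genes, 8 had a window, namely all but *Ccn2* and *Tead1*. Of these, 6 held the motif (75.0%), compared with 16.6% of the 27025 genes in the table. The genes were chosen as Hippo genes with known YAP targets among them, so this contrast is no evidence of regulation. The 7 distinct sites are shown 5′ to 3′ on the strand of the gene, with the motif in capitals and 10 bases on each side, and positions count the first motif base from the start.
Ajuba, chr14:54577832-54577857, reverse strand, position -186: ttgatggataCATTCCacagtgcccc
Ajuba, chr14:54577810-54577835, reverse strand, position -164: cccctccgcgCATTCCaactgtaaac
Yap1, chr9:8004722-8004747, reverse strand, position -141: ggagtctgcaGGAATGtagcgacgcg
Wwtr1, chr3:57576031-57576056, reverse strand, position -136: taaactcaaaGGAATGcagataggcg
Ccn1, chr3:145650073-145650098, reverse strand, position -103: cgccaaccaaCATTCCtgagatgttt
Amotl2, chr9:102717729-102717754, forward strand, position -65: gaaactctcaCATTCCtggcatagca
Lats2, chr14:57746104-57746129, reverse strand, position 5: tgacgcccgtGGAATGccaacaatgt
*Ajuba* was the 1 gene of the 8 with 2 distinct sites, and 1.36% of all windows held 2 or more. *Lats1* and *Nf2* held no match in their windows, and *Lats2* held one in 1 of its 2 windows. The *Lats2* and *Amotl2* sites lie by starts inside the annotated genes. A match describes the sequence and does not show that TEAD binds there.

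*Usp21*, the targeted gene, had 4.07 and 6.29 TPM (a share of all transcripts, corrected for transcript length) in WT 2 and WT 3 and 1.64 and 2.93 TPM in KO 1 and KO 3. The genotypes did not overlap, KO being lower, and the log2 fold change (the difference between the genotype means of log2(TPM + 1), KO minus WT) was -0.92 (SE 0.33, adjusted p = 0.464 from limma). Reads from the remaining exons can still be assigned to the gene. The hepatocyte markers *Alb*, *Ttr*, *Apoa1*, *Cyp3a11* and *Hnf4a* were above 100 TPM in all 4 libraries. Genes in general lay higher in KO. The median log2 fold change was 0.15 over the 9581 genes tested (mean of at least 1 TPM). It was 0.20 over the 5774 tested genes with a mean of up to 11 TPM, the range of the Hippo genes that were tested. An alternative took from each library the median deviation of the tested genes from their own means over the libraries. Below, this is called setting the library medians equal. It moved the median over all tested genes to -0.00, as it does nearly by construction. KO 1 had the most genes above 0 TPM (13620, compared with 12876 to 13071 in WT and 12978 in KO 3).

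The mean log2(TPM + 1) of all 10 genes, including the 9 that were tested, was higher in KO than in WT. The same held for 66.7% of all tested genes and 69.9% of those with a mean of up to 11 TPM. For 7 genes the lower KO library still exceeded the higher WT library (*Ajuba*, *Yap1*, *Lats2*, *Tead1*, *Nf2*, *Ccn1* and *Amotl2*). *Tead1* was not among the tested genes, and 6 of the 9 tested genes lay above. Of all tested genes, 34.4% lay above in this way and 10.9% below. In the range up to 11 TPM these shares were 37.3% and 9.33%. With the library medians set equal, 5 genes kept non-overlapping genotypes (*Ajuba*, *Yap1*, *Lats2*, *Amotl2* and the untested *Tead1*), compared with 21.5% of all tested genes. None of the 10 had an adjusted p under 0.05 in limma (0.0835% of all tested genes did, and 0.052% of those up to 11 TPM), and 1, *Yap1*, had an unadjusted p under 0.05 with a higher mean in KO (8.45% of all tested genes and 8.52% of those up to 11 TPM). No gene of the 10 had such a p with a lower mean in KO (2.04% and 1.59%). The filter of 1 TPM left 9 genes. *Tead1* was under it and was fitted without it, and *Ajuba* passed it only because of its KO level. The median log2 fold change of the 9 was 0.51.

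**Figure D1:**
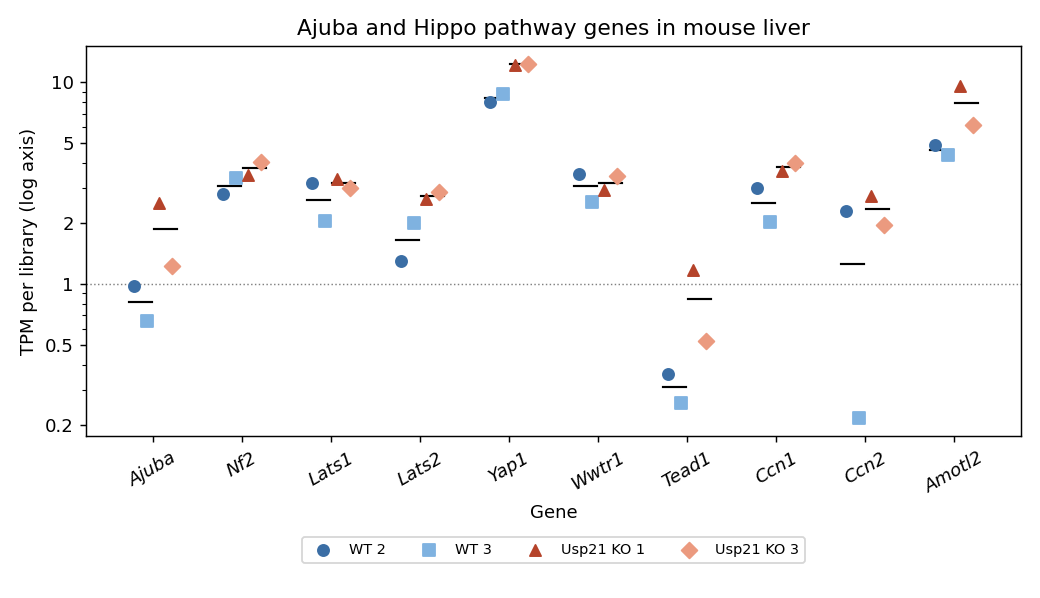
TPM of *Ajuba* and the 9 Hippo pathway genes in each of the 4 libraries on a log axis, with 1 symbol per library. The mean of each genotype is a black line, and 1 TPM is dotted. *Yap1* stood highest at 7.95 to 12.4 TPM and *Tead1* lowest at 0.258 to 1.17 TPM, and the KO symbols lay above the WT symbols for 7 genes.

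*Ajuba* (ENSMUSG00000022178, chr14:54567472-54577558 on GRCm38, reverse strand) had 0.984 TPM in WT 2, 0.655 TPM in WT 3, 2.52 TPM in KO 1 and 1.23 TPM in KO 3. The genotypes did not overlap, but KO 3 lay close to WT 2 and KO 1 stood well above the other 3 libraries. The means were 0.819 ± 0.233 TPM in WT and 1.88 ± 0.914 TPM in KO (SD, n = 2 per genotype), a ratio of 2.29. Its log2 fold change was 0.63 (SE 0.33, adjusted p = 0.518 from limma), with a 95% interval from -0.20 to 1.45. It was 0.30 without KO 1 and 0.96 without KO 3, and 0.48 with the library medians set equal. Because *Ajuba* lies near 1 TPM, the pseudocount of 1 compresses its change, and with a pseudocount of 0.1 the log2 fold change was 1.05.

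The 3 YAP target genes also lay higher in KO, but not in the same libraries. *Amotl2* (ENSMUSG00000032531, chr9:102716672-102733418), which encodes a junction protein that in turn binds YAP, had 4.88 and 4.37 TPM in WT 2 and WT 3 and 9.56 and 6.18 TPM in KO 1 and KO 3. The genotypes did not overlap, and the order of the libraries was that of *Ajuba*, with KO 1 highest and WT 3 lowest. Its log2 fold change was 0.63 (SE 0.27, adjusted p = 0.479 from limma), and 0.35 without KO 1 and 0.91 without KO 3.

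*Ccn1* (ENSMUSG00000028195, chr3:145646976-145649981), which encodes the secreted matrix protein CYR61, had 2.99 and 2.04 TPM in WT 2 and WT 3 and 3.62 and 3.98 TPM in KO 1 and KO 3. KO 3 was highest here. The log2 fold change was 0.46 (SE 0.26, adjusted p = 0.540 from limma), and 0.27 without WT 3. The genotypes overlapped once the library medians were set equal.

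*Ccn2* (ENSMUSG00000019997, chr10:24595442-24598683), which encodes the connective tissue growth factor CTGF, had 2.31 TPM in WT 2, 0.216 TPM in WT 3, 2.75 TPM in KO 1 and 1.97 TPM in KO 3. The genotypes overlapped, since WT 2 lay between the KO libraries, and WT 3 stood far below the rest. Its log2 fold change of 0.73 (SE 0.51, adjusted p = 0.604 from limma) rested on WT 3 and was 0.01 without that library and 1.46 without WT 2.

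**Figure D2:**
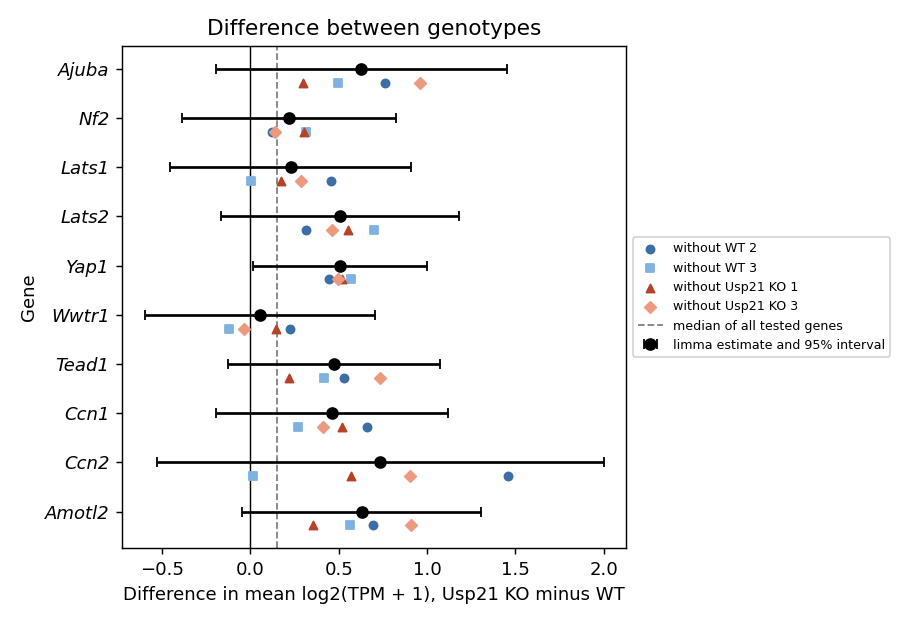
Difference in mean log2(TPM + 1) between KO and WT for each gene, as the limma estimate with its 95% interval (black) and as the estimate with each library left out (coloured symbols); the dashed line is the median of all tested genes, 0.15, and *Tead1* was fitted without the filter. The interval of *Yap1* alone lay above 0, and *Ccn2* spread widest, from 0.01 to 1.46.

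Whether the targets kept step with *Ajuba* was measured as the difference in log2(TPM + 1) between each target and *Ajuba* within a library. For *Amotl2* this difference was 1.57 in WT 2, 1.70 in WT 3, 1.58 in KO 1 and 1.69 in KO 3. The genotype means were 1.63 and 1.64, so that the change in KO was 0.00. For *Ccn1* the difference was 1.01 and 0.88 in WT and 0.39 and 1.16 in KO, a change of -0.17. For *Ccn2* it was 0.74 and -0.44 in WT and 0.09 and 0.42 in KO, a change of 0.11. The lowest value for *Ccn1* came from KO 1, where the subtracted *Ajuba* was highest. *Ccn1* itself had 3.62 TPM there, above WT 2 and WT 3. None of the 3 differences separated the genotypes (exact permutation test, two-sided, p = 1 for each and 1 after Benjamini-Hochberg adjustment over the 5 pairs compared). With 2 libraries against 2 this test cannot give a p below 0.333, so a departure from *Ajuba* could not have passed.

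The even spacing of *Amotl2* and *Ajuba* held on the log2(TPM + 1) scale. As a plain ratio of TPM, *Amotl2* was 4.96 and 6.68 times *Ajuba* in WT 2 and WT 3 and 3.79 and 5.03 times in KO 1 and KO 3. With a pseudocount of 0.1 the change in the difference was -0.32. *Ccn1* was 3.04 and 3.11 times *Ajuba* in WT and 1.44 and 3.24 times in KO, and *Ccn2* ranged from 0.330 times in WT 3 to 2.35 times in WT 2.

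**Figure D3:**
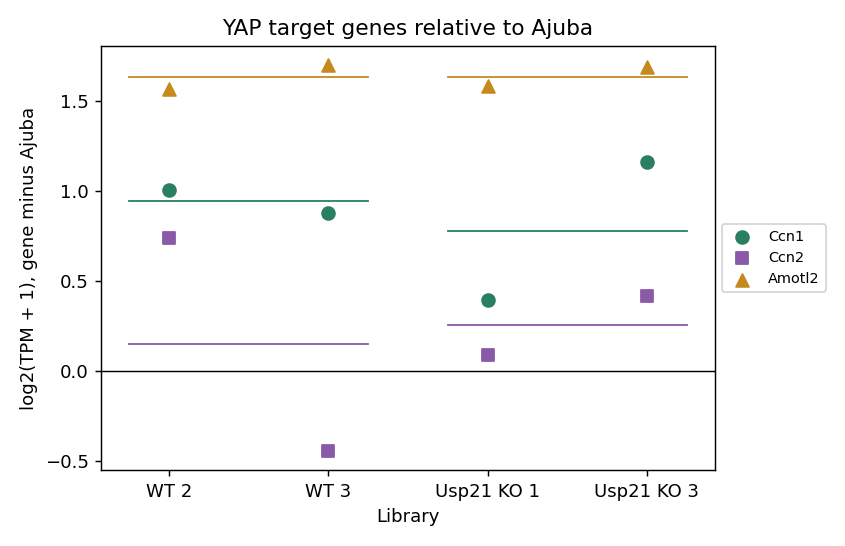
log2(TPM + 1) of *Ccn1*, *Ccn2* and *Amotl2* minus that of *Ajuba* in each library, with a line at the mean of each genotype. *Amotl2* stayed between 1.57 and 1.70, while *Ccn1* ranged from 0.39 to 1.16 and *Ccn2* from -0.44 to 0.74.

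Likeness to *Ajuba* was also measured over all genes as the root mean square difference between the log2(TPM + 1) of 2 genes, each centred on its own mean over the 4 libraries. *Amotl2* differed from *Ajuba* by 0.0592, and 22 of the 9580 other tested genes were closer. *Tead1* differed by 0.107, and 120 tested genes were closer. *Ccn1* had 2340 genes closer and *Ccn2* had 6098. The order of the first pair depended on the pseudocount, since 180 genes were closer than *Amotl2* and 2 closer than *Tead1* at 0.1, and 1378 and 531 at 5. The 5 genes closest to *Ajuba* were *Fzd7*, a receptor for Wnt ligands (0.0121), *Ces3b*, a carboxylesterase (0.0312), *Zfp654* (0.0313), *Papolg*, a poly(A) polymerase (0.0317) and *Triobp*, an actin-binding protein (0.0330). *Fzd7* had 1.75 and 1.31 TPM in WT 2 and WT 3 and 3.92 and 2.05 TPM in KO 1 and KO 3. *Papolg*, with 0.729 and 0.420 TPM in WT 2 and WT 3, passed the filter only through its KO level.

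Of the coactivators, *Yap1* (ENSMUSG00000053110, chr9:7931999-8004596), which encodes YAP, had 7.95 and 8.77 TPM in WT 2 and WT 3 and 12.2 and 12.4 TPM in KO 1 and KO 3. Both pairs lay close together and did not overlap. Its log2 fold change was 0.51 (SE 0.20, unadjusted p = 0.0452, adjusted p = 0.472 from limma), with a 95% interval from 0.02 to 1.00. Leaving out any 1 library gave 0.44 to 0.57. With the library medians set equal it was 0.35, with an unadjusted p of 0.119.

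*Wwtr1* (ENSMUSG00000027803, chr3:57455649-57575910), which encodes TAZ, had 3.53 and 2.57 TPM in WT 2 and WT 3 and 2.92 and 3.45 TPM in KO 1 and KO 3. The genotypes overlapped in full, with a log2 fold change of 0.054 (SE 0.26, adjusted p = 0.948 from limma). Its 95% interval, from -0.60 to 0.70, includes a change as large as that of *Yap1*. The sign turned with the library medians set equal, to -0.10. *Yap1* was 2.25 and 3.41 times *Wwtr1* in WT 2 and WT 3 and 4.18 and 3.59 times in KO 1 and KO 3. This pair was chosen after its values were seen, and the difference between the genotypes on the log2(TPM + 1) scale was 0.45 (exact permutation test, two-sided, p = 0.333, the smallest it can give, and 1 after adjustment over the 5 pairs).

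The LATS kinases phosphorylate YAP and TAZ, and *Lats2* is itself known as a YAP target. *Lats2* (ENSMUSG00000021959, chr14:57689662-57758388) had 1.31 and 2.02 TPM in WT 2 and WT 3 and 2.64 and 2.86 TPM in KO 1 and KO 3, with no overlap. Its log2 fold change was 0.51 (SE 0.27, adjusted p = 0.522 from limma), and 0.31 without WT 2. An annotated protein-coding model, *Gm49361*, overlaps *Lats2* on the same strand, so the division of reads between them is uncertain.

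*Lats1* (ENSMUSG00000040021, chr10:7681214-7716460) had 3.17 and 2.05 TPM in WT 2 and WT 3 and 3.34 and 3.01 TPM in KO 1 and KO 3. WT 2 lay between the KO libraries. The log2 fold change was 0.23 (SE 0.27, adjusted p = 0.765 from limma), and 0.00 without WT 3. *Nf2* (ENSMUSG00000009073, chr11:4765845-4849536) had 2.81 and 3.36 TPM in WT against 3.48 and 4.02 TPM in KO, the smallest separation among the 7 genes without overlap. Its log2 fold change was 0.22 (SE 0.24, adjusted p = 0.744 from limma), and 0.12 without WT 2 and 0.14 without KO 3. The genotypes overlapped with the library medians set equal.

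*Tead1* (ENSMUSG00000055320, chr7:112679318-112906807), which encodes a DNA-binding partner of YAP, had 0.360 and 0.258 TPM in WT 2 and WT 3 and 1.17 and 0.523 TPM in KO 1 and KO 3. The genotypes did not overlap, and KO 1 was again highest. Fitted without the filter, its log2 fold change was 0.47 (SE 0.23, adjusted p = 0.659 from limma), and 0.22 without KO 1 and 0.73 without KO 3. *Tead3* was the most abundant TEAD gene, with 1.5 to 2.81 TPM, while *Tead2* and *Tead4* stayed at or below 0.334 TPM.

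When genes of 1 role were added up, the sums of the LATS kinases and of the coactivators lay higher in KO by similar ratios. Taken alone, *Wwtr1* (ratio of KO to WT 1.04) and *Lats1* (1.22) overlapped between the genotypes, while *Yap1* (1.47) and *Lats2* (1.66) did not. *Yap1* and *Wwtr1* together had 11.4 ± 0.107 TPM in WT and 15.5 ± 0.503 TPM in KO (SD, n = 2), a ratio of 1.36. *Lats1* and *Lats2* together had 4.27 ± 0.294 TPM in WT and 5.92 ± 0.0743 TPM in KO, a ratio of 1.39. The ratio of the first sum to the second was 2.57 and 2.79 in WT 2 and WT 3 and 2.53 and 2.70 in KO 1 and KO 3, with overlapping genotypes (exact permutation test, two-sided, p = 0.667). *Tead1* to *Tead4* together had 2.02 and 2.08 TPM in WT against 4.31 and 2.30 TPM in KO, and the 3 targets had 10.2 and 6.63 TPM in WT against 15.9 and 12.1 TPM in KO. For each of these sums the KO libraries were above the WT libraries (exact permutation p = 0.333, or 0.400 adjusted over the 6 values compared). These sums share the shift of all genes given above.

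Across the 4 libraries the levels ran from *Yap1* (mean 10.3 TPM) through *Amotl2* (6.25), *Nf2* (3.41), *Ccn1* (3.16), *Wwtr1* (3.12), *Lats1* (2.89), *Lats2* (2.21), *Ccn2* (1.81) and *Ajuba* (1.35) to *Tead1* (0.578), all in TPM. The ranges of neighbours overlapped everywhere except between *Amotl2* and *Nf2*. *Yap1* was above *Amotl2* within each of the 4 libraries, as *Lats1* was above *Lats2* and *Ajuba* above *Tead1*. *Nf2*, *Ccn1* and *Wwtr1* did not keep one order. KO 1 held the highest level of 5 genes and KO 3 of 4, and WT 3 held the lowest level of 7. Among tested genes with a mean of up to 11 TPM, 47.6% were highest in KO 1, 22.5% highest in KO 3 and 32.8% lowest in WT 3.

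The rest of the pathway was described from lists of its known components. Of 11 other genes of the kinase cascade, all tested, 10 were higher in KO by mean (66.7% of all tested genes) and 9 had non-overlapping genotypes with KO above (34.4%). The median log2 fold change was 0.52, compared with 0.15 over all tested genes, and it was 0.27 without KO 1. In limma, 2 of them had an unadjusted p below 0.05 with a higher mean in KO (8.45% of all tested genes) and 0 an adjusted one. *Sav1*, the scaffold of the MST kinases, had 1.5 and 2.18 TPM in WT 2 and WT 3 and 3.97 and 3.92 TPM in KO 1 and KO 3 (log2 fold change 0.81, SE 0.26, adjusted p = 0.464 from limma). *Map4k4*, a kinase that acts beside MST, had 0.880 and 0.562 TPM in WT 2 and WT 3 against 2.21 and 1.68 TPM in KO 1 and KO 3 (log2 fold change 0.77, SE 0.28, adjusted p = 0.464 from limma). Like *Ajuba*, *Map4k4* passed the filter only through its KO level, so its difference is no support for the list. The counts and the median given for the list include it. *Stk38*, a relative of the LATS kinases, was the most abundant of the list, at 10.3 to 16.5 TPM.

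The tested relatives of AJUBA did not all share its direction. Of the LIM proteins *Limd1*, *Zyx*, *Lpp* and *Trip6*, 1 was higher in KO (*Lpp*) and 3 were lower, and their median log2 fold change was -0.15. *Zyx*, which encodes the adhesion protein zyxin and was the most abundant, had 10.1 and 9.73 TPM in WT 2 and WT 3 and 6.63 and 9.26 TPM in KO 1 and KO 3. *Wtip*, a close relative of *Ajuba*, was under the filter and had 0.494 and 0.324 TPM in WT against 1.14 and 0.656 TPM in KO. Its genotypes did not overlap, and its libraries stood in the order of *Ajuba*. The median of the 4 was 0.035 without KO 3, and 0 of the list had an unadjusted p under 0.05 in limma.

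Of 17 upstream regulators, 9 were tested, 7 of them higher in KO (66.7% of all tested genes) and 2 lower. Their median log2 fold change, 0.16, was near that of all tested genes. The 7 higher genes and the median include *Csnk1e*, which passed the filter only through its KO level. *Pard3*, a polarity protein, was the most abundant, at 22.3 to 25.2 TPM. Of the TEAD and VGLL factors *Tead3* and *Vgll4* were tested, and both were higher by mean. *Vgll4*, which competes with YAP for TEAD, had 4.27 and 5.76 TPM in WT against 7.45 and 8.46 TPM in KO. None of these genes had an unadjusted p under 0.05 in limma.

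The wider set of YAP target genes was mixed. Of 21 other targets, 8 were tested, of which 5 were higher (66.7% of all tested genes) and 3 lower in the KO livers. Their median log2 fold change was 0.09, and 1 of them had non-overlapping genotypes (*Ccdc80*, named for that after its values were seen), compared with 34.4% of all tested genes. Of the 13 targets under the filter, *Nt5e*, *Tgfb2* and *Rbms3* had both KO levels above both WT levels. Of the 15061 genes above 0 TPM in any library, 28.9% lay above in this way. *Igfbp3*, an IGF-binding protein and the most abundant, had 4.2 and 1.85 TPM in WT 2 and WT 3 and 8.71 and 4.0 TPM in KO 1 and KO 3, with overlap. *Ankrd1*, often used as a YAP readout, was listed at 0 in WT 3 and KO 3 and at 0.108 and 0.477 TPM in WT 2 and KO 1. *Foxf2*, *Edn1* and *Areg* were listed at 0 in all 4 libraries. None of the 8 had an unadjusted p under 0.05 in limma. *F3*, counted among the 5 higher, passed the filter only through its KO level, at a mean of 0.959 TPM in WT and 1.22 TPM in KO.

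**Figure D4:**
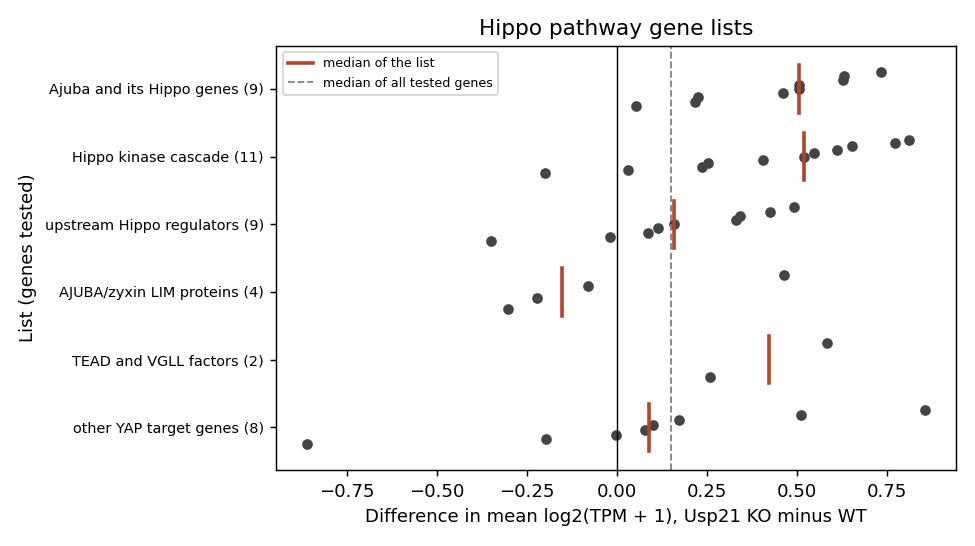
Difference in mean log2(TPM + 1), KO minus WT, of every tested gene (1 point each) in 6 Hippo pathway lists, with the list median in red and the median of all tested genes, 0.15, dashed. The medians of *Ajuba* with its Hippo genes (0.51) and of the kinase cascade (0.52) lay above the dashed line, while the LIM proteins lay at -0.15 and the other YAP targets at 0.09.

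Some Hippo genes differ in level between liver cell types, and YAP is known to be abundant in bile duct cells. In whole liver, fewer cells of a type and less RNA per cell cannot be told apart. The 5 cholangiocyte markers summed to 14.6 and 15.9 TPM in WT 2 and WT 3 and to 37.9 and 24.5 TPM in KO 1 and KO 3, with 3 of the 5 under 1 TPM by mean and *Krt7* at 0 in KO 3. *Spp1* made up most of this, with 13.2 and 12.7 TPM in WT against 33.4 and 20.7 TPM in KO, and *Krt19* had 0.196 and 0.263 TPM in WT against 0.998 and 1.28 TPM in KO. The other 3 overlapped, with *Sox9* at 0.641 and 1.88 TPM in WT against 2.41 and 1.83 TPM in KO, *Epcam* between 0.221 and 0.704 TPM and *Krt7* at most at 0.469 TPM. The 5 stellate cell and fibroblast markers summed to 46.9 and 37.3 TPM in WT against 67.8 and 52.6 TPM in KO, but this separation came from *Dcn*, and the other 4 markers each overlapped between the genotypes. Sinusoidal endothelial markers summed to 40.7 and 31.6 TPM in WT against 33.6 and 49.6 TPM in KO, and Kupffer cell markers to 86.2 and 97.2 TPM in WT against 50.3 and 132 TPM in KO, both with overlap. Of the blood leukocyte markers, the neutrophil genes *S100a8* and *S100a9* stood apart in WT 3, at 29.1 and 12.7 TPM, compared with 0.738 to 2.26 TPM and 0.425 to 3.04 TPM in the other libraries. Mesothelial markers summed to at most 0.265 TPM, with *Wt1* and *Muc16* at 0. The part of these markers in the differences above was not tested.

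The second deposited table, of reads counted per gene, could say little about these genes. It listed 8 of the 10 at 0 in all 4 libraries. *Ccn2* had 1 read in WT 2, 2 in KO 1 and 0 in WT 3 and KO 3, and *Lats1* had 1 read in KO 3 alone. By sampling alone, a count of 0 would allow up to 3 reads. *Gapdh*, at 899 to 1115 TPM in the salmon table, was at 0 there as well, and *Alb* had between 1 and 9 reads. The zeros of this table were therefore not read as absence, and that bound was not applied to them.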

How the data were processed

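RNA-seq libraries of liver (Illumina MiSeq) from WT replicates 2 and 3 and *Usp21* KO replicates 1 and 3 were grouped by their labels. The authors estimated abundance with salmon on mm10 and deposited it as TPM per gene, which keeps no record of depth. The authors also deposited HTSeq counts scaled by TMM (a count-based signal named CPM). All of its values (100%) were whole multiples of 1 read within 0.02 reads, which gave 102898 to 148164 reads per library. Tool versions, annotation and strand setting are not given in the sources used here. The deposited log2 tables repeat both and were not used.

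The test covered genes averaging 1 TPM or more on log2(TPM + 1), fitted with limma 3.58.1 (R 4.3.3, trended moderated variances, 3.62 prior degrees of freedom), two-sided, with Benjamini-Hochberg adjustment over 9581 genes. The study's ANOVA in Partek was not repeated. The alternatives comprised other pseudocounts (0.1, 5), other filters (none, 5 TPM), upper quartile and median scaling, no moderation, the CPM values, edgeR 4.0.16 and DESeq2 1.42.0 on the recovered reads, and each library left out. The scripts were tested on simulated data. The 10 genes and the lists were chosen with earlier results of these data known. Named list genes were those with an unadjusted p under 0.05 (at most 4 a list), the most abundant of each list and the 5 closest to *Ajuba*; others, as well as the *Yap1* with *Wwtr1* and *Lats2* with *Lats1* pairs, the role sums and the 11 TPM range, serve to describe a list or group and were picked after their values were seen. Coordinates are from GENCODE M21 (GRCm38) and promoter sequences from RefSeq (GRCm38.p6). Protein sequences were not analysed here. The summed level of the blood leukocyte markers is not reported here.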

Additional observations from a re-analysis of the deposited data

How the results depend on the processing

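The log2 fold changes of *Ajuba* (0.23 to 1.05) and *Usp21* (-1.20 to -0.48) kept their sign in all 10 alternatives that gave a value, and no gene of the 10 that was tested had an adjusted p under 0.05 in any of 14, of which the 5 TPM filter and the 3 fits of the CPM table tested only 2 genes each. *Wwtr1* turned to -0.047 with upper quartile scaling, -0.10 with median scaling, and -0.12 and -0.038 without WT 3 and KO 3. Genes with an unadjusted p under 0.05 (1, *Yap1*) numbered 0 with a pseudocount of 5 or either scaling. Of all tested genes, 8.16% reached that threshold with a higher KO mean at the pseudocount of 5. The shares were 5.14% with upper quartile scaling and 4.24% with median scaling. With libraries left out, 1 genotype keeps 1 library, so this count is not given for those fits. Both this count and that of non-overlapping genotypes were 0 in the CPM table (limma, edgeR or DESeq2), where *Yap1* and 7 other genes of the 10 were not tested, being at 0 reads. Non-overlapping genotypes numbered 7 to 10 above and 0 to 1 below with libraries left out, with *Tead1* counted though not tested. Of all tested genes, 44.3% to 57.6% then lay above. *Amotl2* minus *Ajuba* turned to -0.32 at the 0.1 pseudocount and -0.037 after upper quartile scaling, and ranged from -0.063 to 0.067 with libraries left out, *Ccn1* minus *Ajuba* from -0.55 to 0.22 and *Ccn2* minus *Ajuba* from -0.49 to 0.70. *Lats2* minus *Lats1*, 0.28, was -0.14 without WT 2.

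Alternatives for that pair and for the list medians were added after the data were seen. The medians moved as follows. LIM proteins gave -0.30 at 5 TPM and with median scaling, and -0.21 to 0.035 with libraries left out. They gave -0.50 on the CPM, -0.29 in edgeR and -0.35 in DESeq2. *Gapdh* had 0 reads in the table behind these last values, so they are no check of the list. The kinase cascade gave 0.26 with a pseudocount of 5, 0.25 at 5 TPM and 0.27 to 0.61 with libraries left out. Upstream regulators gave 0.26 with a pseudocount of 0.1, 0.034 at 5 TPM, 0.0078 with median scaling and 0.063 to 0.26 with libraries left out. TEAD and VGLL factors gave 0.24 with a pseudocount of 5, 0.13 unfiltered and 0.58 at 5 TPM, and 0.29 to 0.56 with libraries left out. Other YAP targets gave -0.062 with median scaling and -0.0077 to 0.32 with libraries left out, and immediate early genes -0.24 to 0.76. The causes were not tested. Over all genes, 8 had an adjusted p under 0.05 in limma on TPM, compared with 12 of 5146 in edgeR and 1 in DESeq2 on the recovered reads. The CPM table gave no median where it held under 50% of a list. Without a library, the lone library is assumed to vary like the others. No paired analysis was possible because the genotypes share 1 replicate number, 3. TPM hides depth, so how far counting error limits genes near 1 TPM is unknown.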

Other observations

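*Ccn1* and *Ccn2* also belong to the immediate early genes, which respond within minutes to serum or stress. *Junb* had 6.76 TPM in WT 2, 55.6 TPM in WT 3, 17.0 TPM in KO 1 and 8.57 TPM in KO 3, and *Fos* had 0.173, 2.95, 0.481 and 0 TPM in the same order. WT 3 was thus highest for both, while *Ccn1* and *Ccn2* were lowest there. *Dusp1*, a phosphatase of MAP kinases, was the 1 gene of the list with an unadjusted p under 0.05 in limma. Of all tested genes, 8.45% had such a p with a higher mean in KO. *Dusp1* had 4.16 and 6.39 TPM in WT 2 and WT 3 and 12.0 and 9.50 TPM in KO 1 and KO 3 (log2 fold change 0.92, SE 0.27, adjusted p = 0.464 from limma). Of the 10 genes of this list 5 were tested, and 3 were higher (66.7% of all tested genes) and 2 lower in the KO livers. Their median log2 fold change was 0.09, and it was 0.76 without WT 3.

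The other members of the CCN family of matrix proteins, *Ccn3* to *Ccn6*, were each at or below 0.421 TPM in every library and none passed the filter, with *Ccn4* the most abundant at a mean of 0.211 TPM.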
